A study of Mus musculus with 28 samples.

Results

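The genes described here are 10 mouse genes of the liver X receptor (LXR) and cholesterol efflux route: Nr1h3, Nr1h2, Pparg, Abca1, Abcg1, Apoe, Mylip, Npc1, Npc2 and Lipa. They were chosen by name, and each was matched through its Ensembl gene ID to 1 of the 55487 gene IDs measured in every library. RNA was sequenced from 28 libraries of cultured wild-type mouse macrophages, differentiated from bone marrow, in 7 groups of 4. The M0 group had no polarizing cytokine, and its labels name neither T cells nor an uptake status. The other 6 groups were kept with IFN-γ or with IL-10, each at 50 ng/mL for 48 h, beside T cells made apoptotic with ATP or NAD+ and stained with a fluorescent antibody to CD4. Within each cytokine the macrophages were sorted by what they had engulfed: regulatory T cells (Treg-phagocytic), conventional CD4 T cells (Tconv-phagocytic) or neither (non-phagocytic). A comparison with M0 therefore carries the co-culture and the sort along with the cytokine, and these cannot be told apart. Macrophages sorted by uptake may also have differed before it, and such a difference cannot be told apart from an effect of uptake. Nothing in the labels says that the 4 libraries of a group came from separate cultures or animals, so the p-values measure the spread between these libraries, which may be technical.

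A macrophage that engulfs a dead cell takes in that cell's cholesterol. Lysosomal acid lipase, encoded by Lipa, frees cholesterol from its esters, and the proteins encoded by Npc2 and Npc1 pass it in turn out of the lysosome. Oxidized derivatives of cholesterol activate the nuclear receptors LXRα (Nr1h3) and LXRβ (Nr1h2), which bind DNA with a retinoid X receptor partner. LXR then raises transcription of the exporters Abca1 and Abcg1, of the lipid carrier Apoe, and of Mylip, a ubiquitin ligase that limits cholesterol uptake. The fatty-acid-sensing receptor encoded by Pparg acts beside LXR on lipid uptake and storage genes in macrophages.

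Levels are in TPM, a share of all transcripts that is corrected for transcript length and can be compared between genes. Fold changes are log2 differences of scaled TPM plus a pseudocount of 1, where scaling divides each library by its trimmed mean ratio to the average library. Adjusted p-values are from limma over 13631 genes with Benjamini-Hochberg adjustment, and a gene was called when the adjusted p was below 0.05. The IFN-γ libraries were shallower, at 10.1 to 22.3% of the deepest library, against 47.8 to 90.8% for IL-10 and 68.8% or more for M0, and this depth cannot be told apart from IFN-γ. Without scaling, the median gene stood 0.24 lower in IFN-γ than in M0 on the log2 scale, against 0.03 higher after scaling. Macrophage marker genes, 7 of 7 detected in every library, summed to between 16350 and 21080 TPM. In bulk libraries, fewer cells of a type and less RNA per cell cannot be told apart. T cell marker genes, 10 of 10 detected in every group, summed to 40.8 to 89.5 TPM in M0, 277 to 503 TPM in the 12 IFN-γ libraries and 53.9 to 130 TPM in the 12 IL-10 libraries. The IFN-γ groups overlapped, at 277 to 449 TPM in non-phagocytic, 313 to 406 TPM in Tconv-phagocytic and 343 to 503 TPM in Treg-phagocytic libraries. Of the 10, 0 were called for Treg or Tconv uptake against none under IFN-γ, where 8.31% and 0.00734% of all tested genes were. Stromal markers summed to 116 to 135 TPM in M0, 3.09 to 11.5 TPM with IFN-γ and 28.4 to 164 TPM with IL-10. The part of these other RNAs in the results was not tested.

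Most of the 10 genes differed between the non-phagocytic cytokine groups and M0, and Abca1 and Apoe differed in opposite directions with the 2 cytokines. In non-phagocytic IFN-γ macrophages against M0, 7 of the 10 genes fell and 2 rose, where 52.4% of all tested genes were called, 24% lower and 28.4% higher. In non-phagocytic IL-10 macrophages against M0, 3 rose and 4 fell, where 26.6% of all tested genes were called, 13.6% higher and 13.1% lower. Between the cytokines, 3 genes were higher and 5 lower with IFN-γ than with IL-10, where 50.7% were called, 27.8% higher and 22.9% lower. The 10 genes had a median log2 difference of -0.37 for IFN-γ against M0 and -0.03 for IL-10 against M0, beside 0.03 and 0.00143 over all tested genes. Without scaling, several IFN-γ differences from M0 moved by over 1.5 times and stayed called: Nr1h2 -0.47, Abcg1 -0.80, Apoe -0.63, Mylip -0.82, Npc2 0.63 and Lipa -0.76 on the log2 scale. The unscaled differences of IFN-γ from IL-10 were -0.59 for Nr1h2, 0.39 for Pparg, -0.74 for Abcg1 and 0.60 for Npc2, all called, and Mylip was then called too (-0.41, limma adjusted p = 0.000255). These comparisons share groups: M0 serves both cytokines, and each non-phagocytic group serves 2 comparisons here and also the uptake comparisons.

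**Figure D1:**
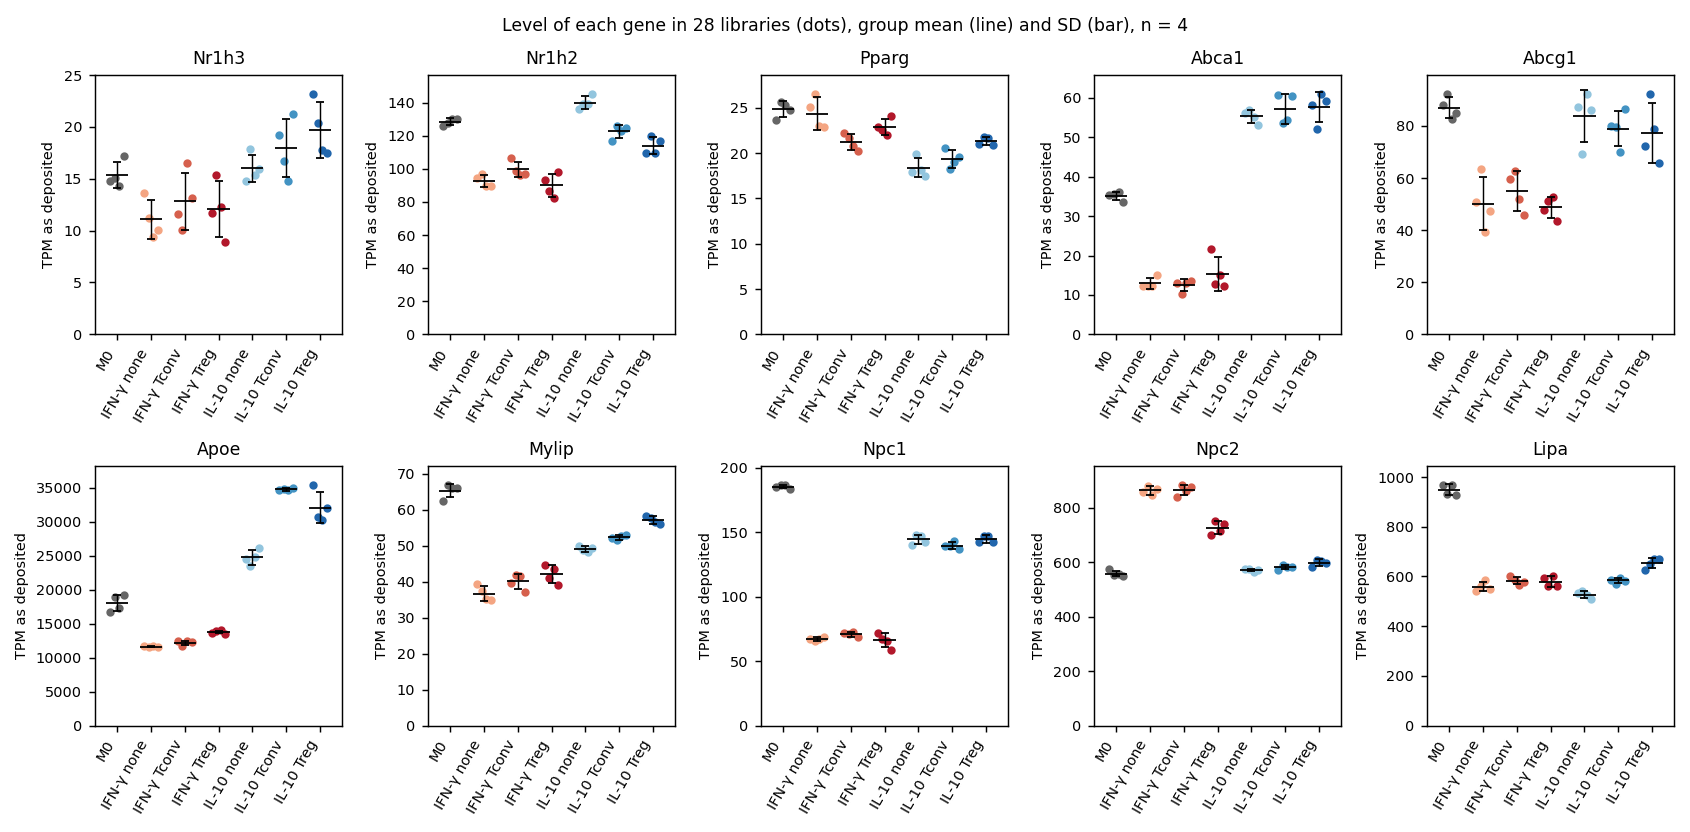
Deposited TPM (vertical axis, from 0) of each of the 10 genes in the 28 libraries, with 1 dot per library in 7 groups, the mean as a line and the SD as a bar (n = 4); "none" marks non-phagocytic macrophages. Abca1 and Npc1 are lowest in the IFN-γ groups, Npc2 is highest there, and Apoe is highest in the phagocytic IL-10 groups.

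Uptake comparisons gave fewer calls among the 10 than the cytokine comparisons. Under IL-10, 5 genes were called higher after Treg uptake (Pparg, Apoe, Mylip, Npc2 and Lipa) and Nr1h2 lower. Of all tested genes 11.4% were called there, 7.2% higher and 4.23% lower. After Tconv uptake under IL-10, 4 were called higher (Apoe, Mylip, Npc2 and Lipa), where 6.11% were called, 4.39% higher and 1.72% lower. Lipa was the 1 gene called between the Treg- and Tconv-phagocytic IL-10 macrophages, where 1.38% of tested genes were called, 0.47% higher and 0.91% lower. Under IFN-γ, Apoe, Mylip and Lipa were called higher after Treg uptake than without uptake, where 8.31% were called, 3% higher and 5.31% lower. Apoe alone was called between Treg- and Tconv-phagocytic IFN-γ macrophages, where 12.7% were called, 5.38% higher and 7.3% lower. Tconv uptake under IFN-γ gave no limma call among the 10. Of the 13631 tested genes, 1 (0.00734%) was called there, lower and none higher (0%), and 871 had an unadjusted p below 0.05. Pparg was among those 871 (-0.24, adjusted p = 0.702). The median log2 difference of the 10 genes was 0.22 for Treg uptake and 0.14 for Tconv uptake under IL-10, beside 0.00451 and 0.00981 over all tested genes. Under IFN-γ these medians were 0.09 and 0.03, beside 0.04 and 0.000835.

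**Figure D2:**
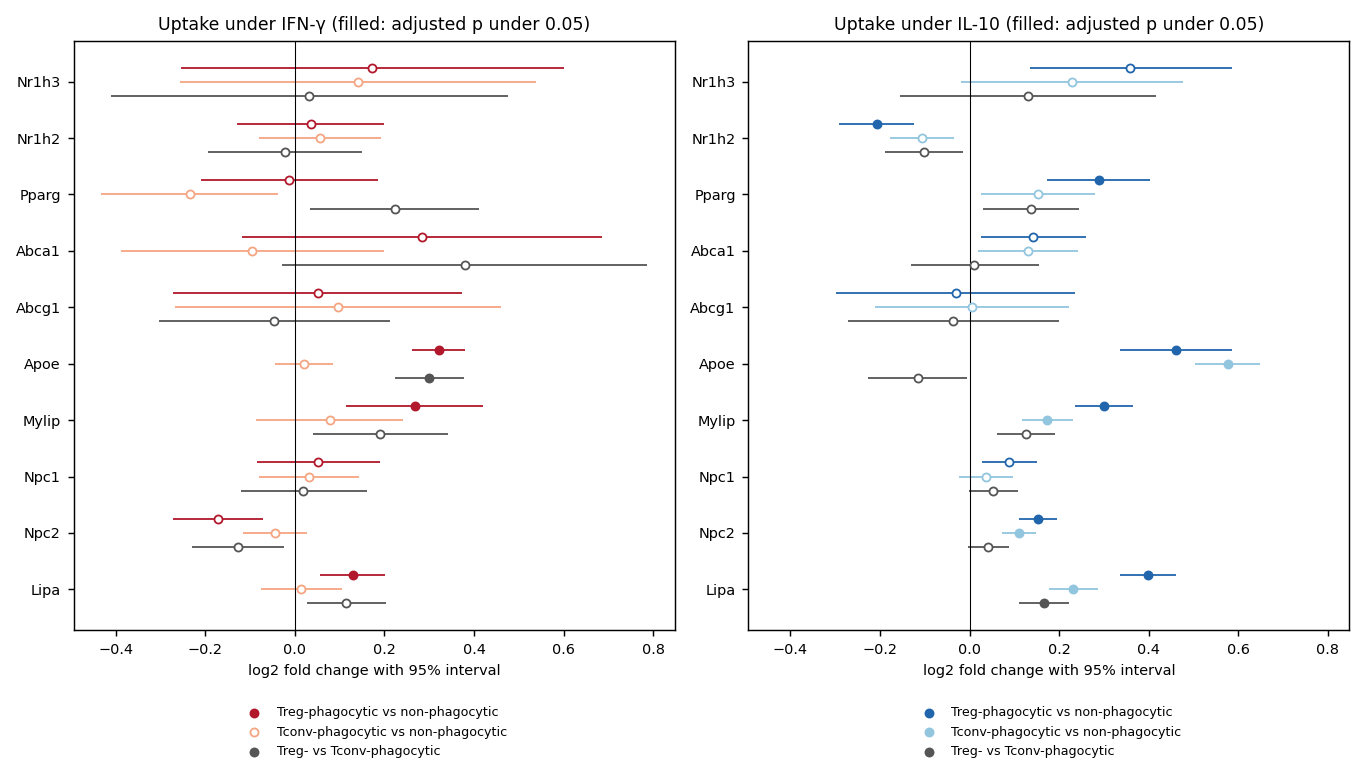
Log2 fold changes with 95% intervals (horizontal axis) of the 10 genes for the 3 uptake comparisons under IFN-γ (left) and IL-10 (right); filled points have an adjusted p below 0.05. Apoe lies to the right of 0 for both kinds of uptake under IL-10 and only for Treg uptake under IFN-γ, and the intervals are wider under IFN-γ for most genes.

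Among the receptors, Nr1h2 was the more abundant LXR transcript in every library. Its TPM was 4.73 to 11.1 times that of Nr1h3. Nr1h3, chromosome 2, 91184061 to 91202834 (GRCm38), had 14.3 to 17.2 TPM in M0, 8.86 to 16.5 TPM over the 12 IFN-γ libraries and 14.8 to 23.2 TPM over the 12 IL-10 libraries. It was called in no comparison with scaled values. Without scaling it was called lower with IFN-γ than in M0 (-0.44, limma adjusted p = 0.0126, against -0.14 scaled) and than with IL-10 (-0.50, adjusted p = 0.00704, against -0.18 scaled). Its largest uptake difference was in the IL-10 Treg-phagocytic macrophages, whose libraries had 23.2, 20.4, 17.8 and 17.5 TPM against 14.8, 17.8, 15.4 and 15.98 TPM in the non-phagocytic ones. The highest non-phagocytic library had more TPM than 2 of these, and the scaled difference was 0.36 (95% interval 0.13 to 0.59, limma adjusted p = 0.0517). That difference was called in 3 of 12 alternatives (adjusted p 0.0174 to 0.036). Scaled group means of Nr1h3 ran from 18.5 in IL-10 Treg-phagocytic to 12.5 in IFN-γ non-phagocytic macrophages, and every neighbouring pair in that order overlapped.

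Nr1h2, chromosome 7, 44549616 to 44553951, had 126 to 130.4 TPM in M0, and 94.7, 97.2, 89.6 and 89.5 TPM in the IFN-γ non-phagocytic libraries. IL-10 non-phagocytic macrophages had 136, 139, 139 and 145 TPM. On the scaled values this was 0.14 lower than M0 with IFN-γ (SE 0.04, limma adjusted p = 0.0249) and 0.10 higher with IL-10 (SE 0.03, adjusted p = 0.0259). The first call was lost without M0 library 2, 3 or 4 or IFN-γ library 4 (adjusted p 0.0506 to 0.0689), and the second without M0 library 1 or 2 or IL-10 library 3 or 4 (0.0563 to 0.0645). Both were also lost without the mean-variance trend of the variance model (0.0884 and 0.0821), the first with a replicate block (0.078), and the second in the fit of all 28 libraries (0.265) and with the GC and length correction (0.056). Under IL-10, uptake went with lower Nr1h2: the Treg-phagocytic libraries had 110, 120.0, 110 and 117 TPM, all below the non-phagocytic ones. The scaled fall was 0.21 (SE 0.04, limma adjusted p = 0.0093), and it held without any 1 library. The Tconv-phagocytic libraries, at 117 to 126 TPM, lay between them, with a difference of -0.11 (adjusted p = 0.0957), which was called without scaling (-0.19, adjusted p = 0.0117) and with variance weights per group (adjusted p = 0.032).

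Pparg, chromosome 6, 115360951 to 115490399, was lowest with IL-10 and no uptake. Those libraries had 17.95, 19.9, 18.2 and 17.5 TPM, against 23.6, 25.6, 25.4 and 24.7 TPM in M0, and the groups did not overlap. The scaled fall was 0.43 (SE 0.05, limma adjusted p = 0.000339). Treg-phagocytic IL-10 libraries had 21.02, 21.8, 21.7 and 20.9 TPM, each above every non-phagocytic library. That rise was 0.29 (SE 0.05, adjusted p = 0.0084), and the Tconv-phagocytic difference was 0.15 (adjusted p = 0.167, and 0.0201 with variance weights per group). With IFN-γ, the deposited Pparg values of 22.8 to 26.5 TPM overlapped M0. Scaling placed them 0.29 above M0 (adjusted p = 0.00961), without scaling they stood 0.03 below on the log2 scale (-0.028, adjusted p = 0.755), and a correction for GC content and length gave 0.13 (adjusted p = 0.191), so the direction against M0 rests on the scaling. IFN-γ exceeded IL-10 in non-phagocytic macrophages by 0.72 (SE 0.08, adjusted p = 8.54e-05).

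Abca1, which moves cholesterol and phospholipid onto apolipoprotein A-I, gave the largest range of levels of the 10 genes, 3.99-fold between its highest and lowest scaled group mean. The gene lies on the minus strand of chromosome 4, 53030787 to 53159895. LXR with its partner is known to bind direct repeats with a short spacer, so the windows from 250 bases before to 50 after the RefSeq starts (GRCm38.p6) were searched on both strands for 2 direct copies of AGGTCA with 4 free bases between them, a repeat known as DR4. Of the 10 genes, 8 had 13 such windows, and none held it with up to 2 mismatches, which 3.02% of 32851 mouse promoters did. At 3 mismatches, a limit chosen after the first search, 21.9% of promoters had a match, and so did those of Abca1 and Pparg. The Abca1 match began 67 bases before the start and is shown because Abca1 is the exporter that moved most. The 250 bases before the start, chr4:53159896-53160145, are printed on the gene's strand with the match in capitals. A match is a description of the sequence, and no binding was measured.
Abca1: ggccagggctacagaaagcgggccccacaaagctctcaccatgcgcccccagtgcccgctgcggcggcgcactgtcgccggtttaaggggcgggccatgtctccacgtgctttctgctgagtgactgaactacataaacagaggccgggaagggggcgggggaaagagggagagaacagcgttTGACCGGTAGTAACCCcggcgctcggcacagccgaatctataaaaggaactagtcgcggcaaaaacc
Abca1 match on the opposite strand: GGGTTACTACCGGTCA
Pparg match: AGGTCAAGAAGGGGCC

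The 4 M0 libraries had 35.4, 35.5, 36.0 and 33.5 TPM of Abca1. The IFN-γ non-phagocytic libraries had 12.2, 12.2, 12.2 and 15.1 TPM, and the IL-10 non-phagocytic libraries had 56.1, 56.9, 55.1 and 53.1 TPM. Every IFN-γ library was below and every IL-10 library above every M0 library. Abca1 was 2.10-fold lower with IFN-γ than in M0 (log2 -1.07, SE 0.08, limma adjusted p = 1.15e-05) and 1.54-fold higher with IL-10 (log2 0.62, SE 0.03, adjusted p = 2.93e-06). The direct contrast of IFN-γ with IL-10 was -1.69 (SE 0.08, adjusted p = 4.27e-07). These calls held under every alternative and without any 1 library.

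Uptake gave no call for Abca1. The Tconv-phagocytic IFN-γ libraries had 12.99, 10.3, 13.1 and 13.5 TPM, and the Treg-phagocytic ones 21.6, 12.7, 15.0 and 12.4 TPM. One Treg-phagocytic library, Ax647-1, stood above the other 3, and the Treg minus Tconv difference was 0.38 with an interval of -0.03 to 0.79 (limma adjusted p = 0.213). It was called in the fit of all 28 libraries (adjusted p = 0.00969), and without Ax647-1 it was 0.23 (adjusted p = 0.358). Under IL-10, the Tconv-phagocytic libraries had 60.7, 53.6, 54.4 and 60.4 TPM and the Treg-phagocytic ones 58.1, 52.1, 61.0 and 59.2 TPM, overlapping each other and the non-phagocytic libraries. The scaled rise over non-phagocytic was 0.14 (interval 0.03 to 0.26, adjusted p = 0.121) for Treg and 0.13 (0.02 to 0.24, adjusted p = 0.181) for Tconv uptake. The Treg difference was called with the GC and length correction (0.19, adjusted p = 0.0423) and without Treg library Ax647-2 (0.19, adjusted p = 0.0217). Without scaling it was 0.06 (adjusted p = 0.502), and the Tconv difference 0.05 (adjusted p = 0.589). Over the 28 libraries, the genes whose pattern was most like that of Abca1 among 8714 were Tgfbr2, Mpeg1 and Mrc1, with Pearson r of 0.985, 0.985 and 0.984. These coefficients describe 28 libraries that share cytokine and depth.

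Abcg1, chromosome 17, 31057675 to 31117988, exports cholesterol to high-density lipoprotein particles. M0 libraries had 88.0, 92.3, 82.8 and 85.1 TPM, and IFN-γ non-phagocytic libraries had 50.9, 63.3, 39.2 and 47.3 TPM, with no overlap. The fall of 0.48 (SE 0.13) was called (limma adjusted p = 0.0123). IL-10 non-phagocytic libraries had 87.1, 69.3, 92.2 and 86.3 TPM, overlapping M0, and the difference of -0.08 was not called (interval -0.27 to 0.11). The contrast of IFN-γ with IL-10 was -0.40 (adjusted p = 0.0464), and that call was lost without library 1, 3 or 4 of either group (adjusted p 0.0713 to 0.123) and in 4 alternatives: without the filter on low values, without the mean-variance trend, with neither, and with a replicate block (0.0701 to 0.148). With neither filter nor trend the fall from M0 was not called either (0.0516). No uptake comparison was called for Abcg1, with differences between -0.05 and 0.10. Abcg1 TPM was 1.11 to 1.77 times that of Abca1 in the 12 IL-10 libraries and 2.3 to 2.6 times in M0. With IFN-γ it was 3.14 to 5.18 times in the non-phagocytic and 2.21 to 6.12 times in the phagocytic libraries.

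**Figure D3:**
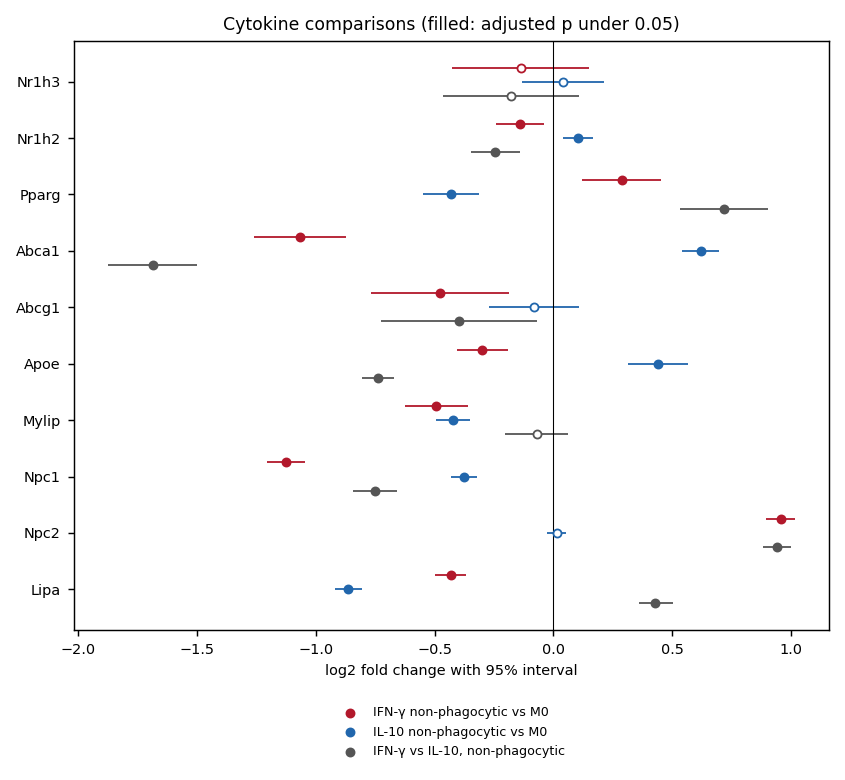
Log2 fold changes with 95% intervals (horizontal axis) of the 10 genes for IFN-γ against M0, IL-10 against M0 and IFN-γ against IL-10, all in non-phagocytic macrophages against 4 libraries each; filled points have an adjusted p below 0.05. Abca1 runs from -1.69 to 0.62, Npc2 is near 0.95 in both IFN-γ contrasts, and Lipa is at -0.86 for IL-10 against M0.

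Apoe, chromosome 7, 19696109 to 19699188, is secreted by macrophages and carries the exported lipid. It ranked between 2 and 8 among all gene IDs by TPM in every library, and made up 1.16 to 3.54% of the TPM. M0 libraries had 16689, 18905, 17284 and 19184 TPM. IFN-γ non-phagocytic libraries had 11661, 11614, 11692 and 11575 TPM, and IL-10 non-phagocytic libraries had 24456, 23497, 24833 and 26181 TPM. The 3 groups did not overlap: Apoe was 1.23-fold lower with IFN-γ than in M0 (log2 -0.30, SE 0.05, limma adjusted p = 0.000734) and 1.36-fold higher with IL-10 (log2 0.44, SE 0.06, adjusted p = 0.00051). Both calls were lost without a filter on low values (adjusted p = 0.109 and 0.0872), and with neither the filter nor the mean-variance trend they held (0.00557 and 0.00423).

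Under IL-10 both kinds of engulfed cell went with still more Apoe. The Tconv-phagocytic libraries had 34657, 34829, 34601 and 34957 TPM, and the Treg-phagocytic libraries had 35399, 30665, 30234 and 32075 TPM. All 8 exceeded every non-phagocytic IL-10 library. The rise was 1.49-fold after Tconv uptake (log2 0.58, SE 0.03, limma adjusted p = 5.54e-05) and 1.38-fold after Treg uptake (log2 0.46, SE 0.06, adjusted p = 0.00163). Without the filter both calls were lost (adjusted p = 0.0675 and 0.158), and with neither filter nor trend they held (0.000941 and 0.0131). The Treg- and Tconv-phagocytic libraries overlapped, with a difference of -0.12 (interval -0.23 to -0.005, adjusted p = 0.343). Without Treg library Ax647-1 it was called (-0.17, adjusted p = 0.0297). Beside this, stromal markers summed to 83.1 to 87.6 TPM in the non-phagocytic, 151 to 164 TPM in the Tconv-phagocytic and 28.4 to 32.3 TPM in the Treg-phagocytic IL-10 libraries. T cell markers summed to 53.9 to 60.5 TPM, 70.2 to 96.2 TPM and 110 to 130 TPM in the same order of groups. Of the 10 T cell markers, 6 were called higher after Tconv and 10 after Treg uptake, where 4.39% and 7.2% of all tested genes were. The part of either marker list in the Apoe values was not tested.

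Under IFN-γ, Apoe was called higher after Treg uptake and not after Tconv uptake. The Tconv-phagocytic libraries had 12387, 11764, 12387 and 12259 TPM of Apoe and the Treg-phagocytic libraries 13678, 13884, 14022 and 13529 TPM. Every Treg-phagocytic library was above every Tconv-phagocytic and every non-phagocytic one. Apoe was 1.23-fold higher after Treg than after Tconv uptake (log2 0.30, SE 0.03, limma adjusted p = 0.00204) and 1.25-fold higher than without uptake (log2 0.32, SE 0.03, adjusted p = 0.000644). The scaled difference between Tconv-phagocytic and non-phagocytic macrophages was 0.02 with an interval of -0.05 to 0.09. Without scaling the difference from Tconv uptake was 0.18 (adjusted p = 0.00498). Without the filter the 2 calls were lost (adjusted p = 0.513 and 0.435), and with neither filter nor trend they held (0.00631 and 0.00117). Macrophage markers moved with Apoe: they summed to 20580 to 21080 TPM in the Treg-phagocytic, 16350 to 18670 TPM in the Tconv-phagocytic and 16970 to 17680 TPM in the non-phagocytic IFN-γ libraries. Of these 7 markers, 4 were called higher and 1 lower against Tconv uptake (median log2 difference 0.25), and 5 higher and 1 lower against none (median 0.23). Of all tested genes, 5.38% were called higher and 7.3% lower against Tconv uptake, and 3% higher and 5.31% lower against none. Their depths, in the same order of groups, were 10.1 to 17.6%, 18.5 to 22.3% and 16.5 to 20.2% of the deepest library. Of the 4 genes known to respond to IFN-γ that are reported here (Irf1, Gbp2, Ciita and Cxcl9), 3 were called lower, where 7.3% of all tested genes were, in the same Treg-phagocytic libraries than after Tconv uptake: Irf1 (-1.08, limma adjusted p = 0.00298), Gbp2 (-1.54, 0.00265) and Ciita (-1.28, 0.0116). Cxcl9 differed by -0.80 (0.27). The part of these markers, of depth and of these 4 genes in the Apoe differences was not tested.

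The difference between cytokines was tested directly. The Apoe difference with Tconv uptake was 0.56 lower under IFN-γ than under IL-10 on the log2 scale (-0.556, SE 0.04, limma adjusted p = 2.88e-06). The Treg minus Tconv difference was 0.42 higher (SE 0.06, adjusted p = 0.000165). For Treg uptake against none, the difference of -0.14 was not called (interval -0.27 to -0.01, adjusted p = 0.169), and it was called with the GC and length correction (-0.26, adjusted p = 0.00539). All 3 differences draw on the same 6 groups in pairs. Over all tested genes, 1.73% were called for the first (0.198% higher, 1.53% lower), 13.5% for the second (5.66% higher, 7.81% lower) and 9.38% for the third (3.04% higher, 6.34% lower). The genes most like Apoe over 28 libraries were Gas6, Pla2g15 and Selenop (Pearson r between 0.970 and 0.975, among 8714 genes).

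Mylip, chromosome 13, 45389742 to 45412022, is an LXR target whose product limits cholesterol uptake. It was highest in M0, at 62.5, 66.8, 66.1 and 65.9 TPM. IFN-γ non-phagocytic libraries had 39.3, 37.3, 35.2 and 35.0 TPM, and the IL-10 ones 50.0, 48.7, 48.2 and 49.3 TPM. Both groups lay below M0, by 0.49 (SE 0.06, limma adjusted p = 0.00013) and 0.42 (SE 0.03, adjusted p = 1.86e-05) on the log2 scale. The scaled contrast of IFN-γ with IL-10 was -0.07 and was not called (adjusted p = 0.344). In IL-10 non-phagocytic macrophages Mylip thus lay below M0, while the LXR targets Abca1 and Apoe lay above it. The parts of the cytokine, the co-culture and the sort in these differences from M0 cannot be told apart.

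Mylip was higher after uptake under IL-10. The Tconv-phagocytic libraries had 52.0, 51.6, 52.6 and 53.1 TPM and the Treg-phagocytic libraries 58.3, 57.7, 56.5 and 56.0 TPM, so the 3 IL-10 groups did not overlap. Rises over the non-phagocytic level were 0.17 (SE 0.02, limma adjusted p = 0.00588) and 0.30 (SE 0.03, adjusted p = 0.000534), and the step from Tconv to Treg uptake, 0.13, was not called (adjusted p = 0.08) but was in 3 of 16 alternatives (adjusted p 0.0151 to 0.0371). The Tconv call was lost with no scaling (0.09, adjusted p = 0.0657), in the fit of all 28 libraries (0.0517) and with a replicate block (0.0608). Under IFN-γ, the Treg-phagocytic libraries had 44.6, 41.2, 43.5 and 39.0 TPM, and the lowest of them lay within the non-phagocytic range. After scaling they stood 0.27 higher (SE 0.07, adjusted p = 0.0464), a call that held with non-phagocytic library 1 left out and was lost without any 1 of the other 7 (adjusted p 0.0615 to 0.111). It was also lost in 6 of 12 alternatives, among them no scaling (0.19, adjusted p = 0.164).

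The lysosomal genes Npc1 and Npc2 moved apart with IFN-γ. Npc1, chromosome 18, 12189692 to 12236400, encodes the membrane protein that takes cholesterol out of the lysosome. M0 libraries had 185, 187, 187 and 184 TPM of it, IFN-γ non-phagocytic libraries 67.2, 65.3, 67.0 and 69.1 TPM, and IL-10 non-phagocytic libraries 140.4, 148, 147 and 143 TPM. The 3 groups were fully separate. Npc1 was 2.18-fold lower with IFN-γ (log2 -1.13, SE 0.04, limma adjusted p = 8.16e-08) and 1.30-fold lower with IL-10 (log2 -0.38, SE 0.02, adjusted p = 7.87e-06) than in M0.

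No uptake comparison was called for Npc1. The Tconv-phagocytic libraries had 71.5, 71.1, 73.0 and 68.4 TPM under IFN-γ and 139, 139, 143 and 137 TPM under IL-10. The Treg-phagocytic libraries had 72.2, 67.5, 66.0 and 59.0 TPM under IFN-γ and 142, 147, 147 and 142 TPM under IL-10. Each set overlapped the non-phagocytic libraries of its cytokine in deposited TPM. The largest of the 6 scaled differences was 0.09 for IL-10 Treg uptake (interval 0.03 to 0.15, limma adjusted p = 0.0711), which was called with variance weights per group (adjusted p = 0.0127).

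Npc2, chromosome 12, 84754562 to 84773152, encodes the soluble lysosomal protein that hands cholesterol to NPC1. It had 573, 552, 556 and 549.6 TPM in M0 and 858, 880.4, 845 and 867 TPM in IFN-γ non-phagocytic libraries. IL-10 non-phagocytic libraries had 575, 574, 564 and 569.8 TPM, overlapping M0. Npc2 was 1.94-fold higher with IFN-γ than in M0 (log2 0.96, SE 0.03, limma adjusted p = 5.32e-08), and with IL-10 it differed from M0 by 0.015 (interval -0.025 to 0.055). The ratio of Npc2 to Npc1 TPM within a library, which needs no scaling between libraries, was 2.96 to 3.10 in M0 and 12.6 to 13.5 in IFN-γ non-phagocytic macrophages.

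**Figure D4:**
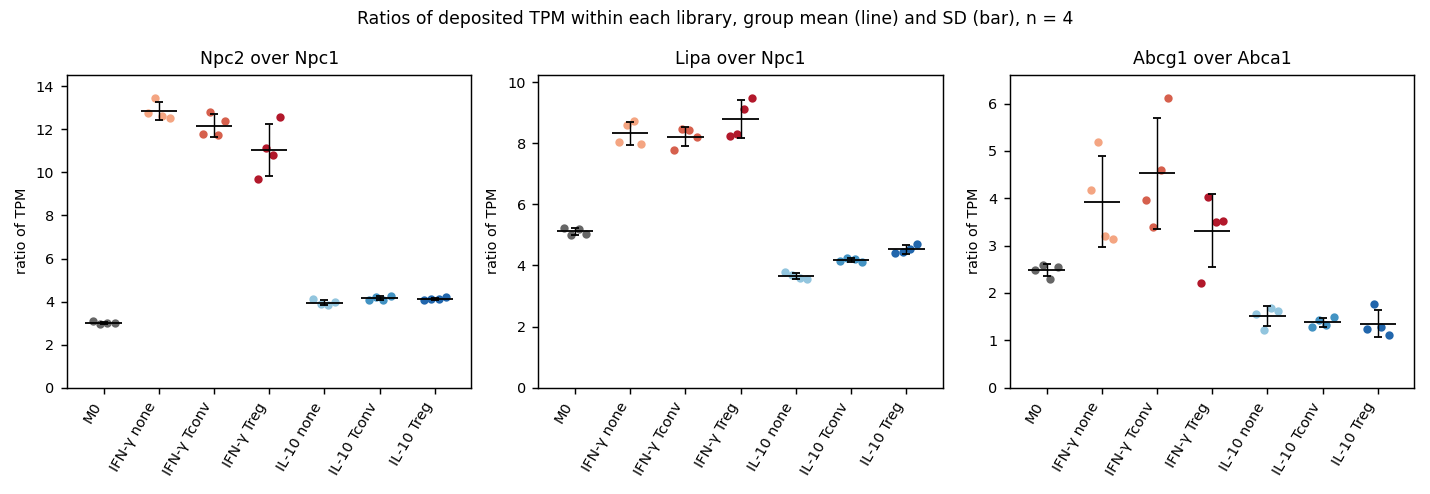
Ratios of deposited TPM within each library (vertical axis, from 0) for Npc2 over Npc1, Lipa over Npc1 and Abcg1 over Abca1 in 7 groups, with the mean as a line and the SD as a bar (n = 4). Npc2 over Npc1 lies between 2.96 and 3.10 in M0 and at 9.69 or more in every IFN-γ library.

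Npc2 differed less with uptake, and in a way that differed between the cytokines. The Tconv-phagocytic IL-10 libraries had 570.3, 591, 583 and 581 TPM and the Treg-phagocytic ones 580.1, 609, 605 and 596 TPM. On scaled values these were 0.11 (SE 0.02, limma adjusted p = 0.00694) and 0.15 (SE 0.02, adjusted p = 0.00185) above the non-phagocytic level. Without scaling neither call was made, at 0.03 (adjusted p = 0.375) and 0.07 (adjusted p = 0.0619), and the Tconv call was also lost without the trend (0.1) and with a replicate block (0.0627). The scaling itself shifts these groups by about that size. Under IFN-γ, Treg-phagocytic libraries had 699.6, 751, 712 and 741 TPM, below all Tconv-phagocytic libraries, at 839 to 882 TPM, and all non-phagocytic ones. After scaling the Treg difference was -0.17 from non-phagocytic (interval -0.27 to -0.07, adjusted p = 0.0508) and -0.13 from Tconv-phagocytic macrophages (adjusted p = 0.108), neither called. Without scaling both were called, at -0.25 from each (adjusted p = 0.003 and 0.00324), and over all alternatives the first was called in 5 of 12 and the second in 3 of 16.

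The test of the difference between cytokines was passed for Npc2. Treg uptake against none was 0.33 lower under IFN-γ than under IL-10 (-0.325, SE 0.05, limma adjusted p = 0.000426), a call that held under every alternative and without any 1 library. The Treg minus Tconv difference (-0.169, adjusted p = 0.0343) and the Tconv uptake difference (-0.156, adjusted p = 0.0323) were called, and each was fragile. The first was -0.29 without scaling (adjusted p = 0.000219), and it was lost with the GC and length correction (0.0524), without the trend (0.179) and without any 1 of 10 of its 16 libraries (all but IFN-γ Tconv BV421-1 and Ax647-1, IFN-γ Treg Ax647-2 and BV421-2, IL-10 Tconv BV421-2 and IL-10 Treg Ax647-1), with adjusted p of 0.0501 to 0.0709. The second was lost without any 1 of 12 (all but IFN-γ non-phagocytic 3 and IFN-γ Tconv BV421-1, BV421-2 and Ax647-2), with adjusted p of 0.051 to 0.0875, and in 4 of 11 alternatives, among them no scaling (-0.02, adjusted p = 0.803).

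Lipa, on the minus strand of chromosome 19, 34492318 to 34527474, was highest in M0, at 968, 932, 967 and 926 TPM. IFN-γ non-phagocytic libraries had 539.9, 561, 584 and 551 TPM, and IL-10 non-phagocytic libraries 532, 542, 526 and 509 TPM. All 8 were below all 4 M0 libraries. Lipa was 1.82-fold lower with IL-10 than in M0 (log2 -0.86, SE 0.03, limma adjusted p = 7.77e-08) and 1.35-fold lower with IFN-γ (log2 -0.43, SE 0.03, adjusted p = 4.6e-06). The scaled contrast of IFN-γ with IL-10 was 0.43 (adjusted p = 5.23e-06), and the deposited values of the 2 groups overlapped, with a difference of 0.08 and no call without scaling (adjusted p = 0.06).

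Engulfment under IL-10 went with more Lipa, in the order none, Tconv, Treg. The Tconv-phagocytic libraries had 586, 571, 595 and 583 TPM, and the Treg-phagocytic ones 628, 651, 669 and 669.6 TPM. The 3 groups did not overlap, in deposited or in scaled TPM. Lipa rose 1.17-fold with Tconv (log2 0.23, SE 0.02, limma adjusted p = 0.00158) and 1.32-fold with Treg uptake (log2 0.40, SE 0.03, adjusted p = 0.000116). Without scaling the Tconv rise was 0.15 (adjusted p = 0.00977). The step from Tconv to Treg uptake was 1.12-fold (log2 0.17, SE 0.02, adjusted p = 0.0157). That step lost its call without Tconv BV421-1 or Ax647-2 or Treg BV421-1 or BV421-2 (adjusted p 0.0546 to 0.0599), and in 4 of 16 alternatives: without the trend and with each of 3 replicate blocks (adjusted p 0.0771 to 0.12). The T cell markers given beside Apoe had sums in the same order, and their part in the Lipa values was not tested.

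Under IFN-γ, Lipa had 604, 584, 567 and 578 TPM in the Tconv-phagocytic and 595, 561, 601 and 559.7 TPM in the Treg-phagocytic libraries. Both sets overlapped the non-phagocytic libraries in deposited TPM. The scaled Treg difference from non-phagocytic macrophages was 0.13 (SE 0.03, limma adjusted p = 0.0461), lost without any 1 library other than non-phagocytic 3 (adjusted p 0.0642 to 0.112) and in 6 of 12 alternatives, among them no scaling (0.05, adjusted p = 0.511). The Tconv difference was 0.01 (interval -0.08 to 0.11). The Lipa difference with Treg uptake was 0.27 lower under IFN-γ than under IL-10 (-0.269, SE 0.04, adjusted p = 0.000795). For Tconv uptake the difference between cytokines was -0.217 (adjusted p = 0.0254), and it was lost without IFN-γ Tconv Ax647-1, IL-10 non-phagocytic 1, 3 or 4, or IL-10 Tconv BV421-1, Ax647-1 or Ax647-2 (adjusted p 0.0502 to 0.0654). Without scaling it was -0.09 (adjusted p = 0.385), and without the trend its adjusted p was 0.231, neither called.

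Other genes of the route, from lists of known targets and partners, are given for comparison. Of 13 further LXR targets, 12 were tested. With IFN-γ against M0, 6 were called lower and 3 higher, where 24% of all tested genes were called lower and 28.4% higher. The 6 included Cd5l, a secreted scavenger-family protein (-1.24), Lpl, lipoprotein lipase (-0.85), and Srebf1, a lipogenic transcription factor (-0.52), and Scd2, a fatty acid desaturase, rose by 1.00. Without scaling, 7 were lower and 1 higher. With IL-10 against M0, 4 of the 12 were called higher and 1 lower, where 13.6% of all tested genes were called higher and 13.1% lower. Apoc2 rose by 1.58, Cd5l by 1.10 and Pltp, the phospholipid transfer protein, by 1.02, and Lpl fell by 1.25. Cd5l had 616 to 639 TPM in M0, 193 to 226 TPM with IFN-γ and 1331 to 1383 TPM with IL-10 in non-phagocytic macrophages. Cd5l was thus ordered as Abca1 and Apoe were, and Lpl was not.

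**Figure D5:**
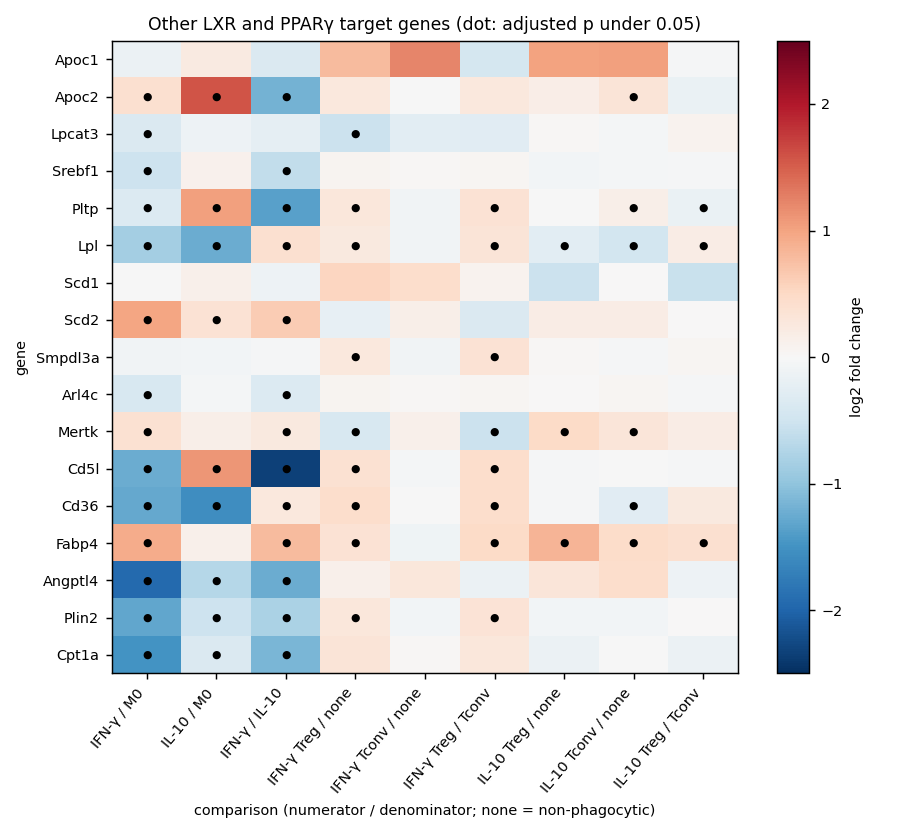
Log2 fold changes (color, red higher and blue lower) of 17 other LXR and PPARγ target genes (rows) in 9 comparisons (columns), each numerator over denominator, with a dot where the adjusted p is below 0.05. Cd5l and Pltp are blue for IFN-γ over IL-10, and the column of Tconv uptake under IFN-γ holds no dot.

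Under IFN-γ, 4 of these 12 LXR targets were called higher after Treg than after Tconv uptake, and 1 lower. There 5.38% of all tested genes were called higher and 7.3% lower. Cd5l was higher by 0.43 (limma adjusted p = 0.00225), Pltp by 0.36 (0.00274), and Smpdl3a by 0.36 (0.00361), and Lpl, named here as a PPARγ target, by 0.33 (0.00582). Mertk, a receptor for apoptotic cells, fell by 0.54 (0.0276). Against non-phagocytic macrophages 4 of the 12 were also called higher, among them Cd5l (0.38) and Pltp (0.28), and Mertk (-0.41) and Lpcat3 (-0.54) lower. In that comparison 3% of all tested genes were called higher and 5.31% lower. Of 6 tested PPARγ targets, 4 were higher in each of these 2 comparisons: Cd36 (0.45 and 0.44), Fabp4 (0.47 and 0.36), Plin2 (0.34 and 0.28) and Lpl, which stands in both lists. Without scaling, 3 of the 6 were called higher in each. For non-phagocytic IFN-γ against M0, 1 of the 6 was called higher and 5 lower (median log2 difference -1.29). There 28.4% of all tested genes were called higher and 24% lower. For non-phagocytic IL-10 against M0, 0 were called higher and 5 lower (median -0.611), where 13.6% and 13.1% of all tested genes were. Of 10 tested receptor partners and cofactors, the coactivator gene Ncoa3 fell by 1.28 and the corepressor gene Ncor1 by 0.47 against Tconv uptake, and no others passed.

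Under IL-10, the wider lists did not differ in 1 direction with uptake. Among the 12 LXR targets, Mertk was higher (0.49) and Lpl lower (-0.26) after Treg uptake, where 7.2% of all tested genes were called higher and 4.23% lower. After Tconv uptake, Apoc2 (0.33), Mertk (0.31) and Pltp (0.14) were higher and Lpl (-0.45) lower, where 4.39% were called higher and 1.72% lower. Without scaling, 1 was called higher and 3 lower for Treg uptake, and 2 higher and 3 lower for Tconv uptake. Fabp4, a fatty-acid binding protein and PPARγ target, rose by 0.86 with Treg and 0.46 with Tconv uptake, from 134 to 157 TPM without uptake to 238 to 267 TPM and 175 to 196 TPM. The list of 6 tested PPARγ targets did not rise as a whole. For Treg uptake 1 was called higher and 1 lower (median log2 difference -0.0465), and for Tconv uptake 1 higher and 2 lower (median -0.039). The retinoid X receptor gene Rxra was 0.15 and 0.14 higher (limma adjusted p = 0.028 and 0.0393). Without scaling both of these small rises lost their call, and no partner gene was called higher.

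Srebf2, which encodes the regulator SREBP-2 of sterol synthesis, fell by 0.23 after Treg uptake under IL-10 (limma adjusted p = 0.0219). Of 8 tested genes listed with SREBP-2, 2 were called lower and 0 higher there, where 4.23% and 7.2% of all tested genes were. None of the 8 was called in any other uptake comparison, where at most 12.7% of all tested genes were. Of 10 sterol transport genes, 5 were called higher and 1 lower with IL-10 against M0, where 13.6% of all tested genes were called higher and 13.1% lower. None of these 10 was called in any uptake comparison under IFN-γ, where at most 12.7% of all tested genes were. Under IL-10, 2 were called higher and 1 lower for Treg uptake against none, where 7.2% and 4.23% of all tested genes were. For Tconv uptake against none 1 was called higher and 0 lower, where 4.39% and 1.72% were. Of 5 tested oxysterol and cholesterol ester genes, none was called in any of the 6 uptake comparisons, where at most 12.7% of all tested genes were. Without scaling 1 was called lower in 2 of these comparisons.

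Across the 28 libraries the members formed pairs that moved with the cytokine. Npc1 and Npc2 had a Pearson r of -0.97, Abca1 and Npc2 -0.91, and Abca1 and Apoe 0.90. Nr1h3 and Nr1h2 had -0.07. These are descriptions over 28 libraries that share cytokine and depth. Among 8714 genes, Pparg was most like Cd9, Akr1a1 and Itm2b (0.939, 0.925 and 0.922). Nr1h3 was most like Sf3a3, Adar and Fam234a at no more than 0.701, and Abcg1 most like Psmd2, Slc11a1 and Tm6sf1 at no more than 0.830.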

How the data were processed

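The authors deposited 1 table per library with TPM values per Ensembl gene ID, per the file headers. The submitters' processing notes name STAR, RSEM and mm10, with no version. What each tool was used for and the annotation are not given in the sources used here. Poly(A) RNA was made into strand-specific libraries, per the labels' protocols. No read counts are in the tables, so relative depth was read from the step that 1 read makes in low TPM values (89.4 to 92.8% of values fell within 0.15 reads of a whole number, where 30% would by chance). 1 read on a transcript of 2000 nt was worth 0.149 to 0.32 TPM with IFN-γ and 0.036 to 0.075 TPM otherwise. Of the 55487 gene IDs, 55141 matched a symbol. No library was left out, and 0 of 378 pairs of libraries were identical.

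TPM was divided by a trimmed mean of log2 ratios to the average library (30% of ratios and 5% of means trimmed), and log2(scaled TPM + 1) was tested with limma 3.58.1 in R 4.3.3, with a mean-variance trend, on the groups compared, for the 13631 genes that reached 1 TPM in 4 or more libraries. There were 9 pairwise comparisons and 3 differences of differences. With 4 against 4 libraries an exact two-sided permutation test cannot go below 0.0286. The fit was tested on simulated data. For Treg against Tconv uptake under IFN-γ, 77 of 100 genes changed by 1 and 4 of 100 changed by 0.3 were recovered. Under IL-10 these were 100 and 54 of 100. For IFN-γ against IL-10 without uptake they were 91 and 17 of 100. Of the unchanged genes, 4, 9 and 10 were called, in the same order. Each simulation changed only these 100 and 100 of 13631 genes, where 12.7%, 1.38% and 50.7% were called in the data, in the same order. The adjusted p depends on how many genes change, so recovery in the data may differ from these counts. For Treg against Tconv uptake, a simulated difference of 0.3 was thus missed more often under IFN-γ than under IL-10. Titles and library names give different antibody dyes for the 8 libraries with Treg uptake. Libraries here go by their titles, with values in the order BV421-1, BV421-2, Ax647-1, Ax647-2 for Tconv and Ax647-1, Ax647-2, BV421-1, BV421-2 for Treg. Others are in order of their number. The dye gave 0 called genes under either reading.

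Members, lists and tests were chosen with earlier results of these data known. Named genes are all 10 members, of each pathway list and comparison at most the 4 called genes with the largest log2 fold change and a mean of at least 5 TPM in the higher group, and the 3 genes most like Abca1, Abcg1, Apoe, Nr1h3 and Pparg by Pearson r. Gene positions are from GENCODE release 21 for mouse on GRCm38, and promoter sequences from RefSeq on GRCm38.p6. Alternatives were other scalings, pseudocounts and filters, other groups in the fit, a GC and length correction, a replicate block, and leaving out each library. Fits with no mean-variance trend were added after seeing the data. Some genes of the pathway and marker lists are not reported here.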

Additional observations from a re-analysis of the deposited data

Results flagged for a closer look

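Within groups of 4, the library farthest from the rest was compared with the whole range of its group for 70 groups (10 genes in 7 groups), and 2 stood apart past the 95% limit of Dixon's test, where chance alone gives about 1 in 20. Abca1 in IFN-γ non-phagocytic library 4 had 15.1 TPM against 12.2 TPM in the other 3, with a gap of 0.936 of the range. Mylip in M0 library 1 had 62.5 TPM, below the other 3, with a gap of 0.887 of the range.

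The effect of uptake differed between IFN-γ and IL-10 by a direct limma test for 3 genes, always as the IFN-γ effect minus the IL-10 effect on the log2 scale. For Apoe the Treg minus Tconv effect differed by 0.416 and the Tconv effect by -0.556. For Npc2 the Treg minus Tconv effect differed by -0.169, the Treg effect by -0.325 and the Tconv effect by -0.156. For Lipa the Treg effect differed by -0.269 and the Tconv effect by -0.217.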

How the results depend on the processing

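Of 46 calls over 120 gene and comparison pairs, 25 held under every alternative and with every library left out. Among the 46, only Pparg for IFN-γ against M0 changed sign (-0.028 without scaling), and of the 74 values not called, 35 crossed 0 under some alternative or with a library left out. Members called moved by over 1.5 times as follows, with the share of all genes called in brackets; the cause was not tested. For Treg against Tconv under IFN-γ (1, 12.7%), the count was 2 without scaling (11.8%), 0 without the filter (3.97%), 6 with all 28 libraries in one fit (32.6%), 3 with variance weights per group (15.7%), 2 with the GC and length correction (11.6%), and 1 to 2 with a library left out. For Treg against none under IFN-γ (3, 8.31%) it was 1 without the filter (2.66%), 1 without the mean-variance trend (4.87%) and 1 to 2 with a library left out. For Treg against Tconv under IL-10 (1, 1.38%) it was 2 without the filter (0.615%), 2 with variance weights (2.72%), 0 without the trend (0.917%), 2 with neither filter nor trend (0.663%), and 0 to 2 with a library left out. Of the differences between cytokines, Treg minus Tconv (2, 13.5%) gave 1 with the GC and length correction (12.8%), 1 without the trend (11.9%) and 1 to 2 with a library left out. Treg against none (2, 9.38%) gave 4 in the fit of all 28 (13.4%), and Tconv against none (3, 1.73%) gave 1 without the trend (0.448%) and 1 to 3 with a library left out.

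The deviations of same-numbered libraries had correlations of -0.067 to 0.085. Values this near 0 cannot show whether the numbers pair the libraries, because sampling noise may fill the spread, and the labels do not settle it. With a replicate block the count was 1 for Treg against none under IFN-γ (3.27%), 2 for Tconv against none under IL-10 (2.36%, from 6.11%), 0 for Treg against Tconv under IL-10 by either dye reading (0.462 and 0.609%) and 0 with the GC and length correction too (0.602%). Under IFN-γ the block gave 1 for Treg against Tconv by either dye reading (7.66 and 7.24%) and 0 for Tconv against none (0%). It gave 6 for Treg against none under IL-10 (6%). For IFN-γ against IL-10 the count was 7 (46.2%), for IFN-γ against M0 8 (48.1%) and for IL-10 against M0 7 (22.9%). Without scaling the share of called genes that were higher changed from 63 to 26.9% for Treg uptake under IL-10, from 71.8 to 25.4% for Tconv uptake under IL-10, from 42.4 to 15.1% for Treg against Tconv under IFN-γ, from 36.1 to 17.5% for Treg against none under IFN-γ, from 54.2 to 31.5% for IFN-γ against M0 and from 54.8 to 29.9% for IFN-γ against IL-10. For a transcript of 2000 nt, 1 read was worth 0.149 to 0.32 TPM in the IFN-γ libraries and 0.036 to 0.075 TPM in the others, so low values are resolved more coarsely with IFN-γ.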
